A study of Mus musculus with 32 samples.

Results

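Kidneys of mice lacking the microRNA miR-155 were set against kidneys of wild type mice, both taken 24 h after cisplatin. The 8 arrays were chosen by sample title, 4 of miR-155-/- and 4 of wild type, from 32 arrays in all. The miR-155-/- mice carried the targeted allele of the strain B6.Cg-Mir155tm1.1Rsky/J, which came originally from The Jackson Laboratory, and the wild type mice were C57BL/6 from Charles River Laboratories. All were male, aged 12 to 16 weeks, and received 1 intraperitoneal dose of 20 mg/kg cisplatin. The other 24 arrays hold the same genotypes 0 h after saline and 48 and 72 h after cisplatin, 4 per group. Each array held kidney RNA of a separate animal, per the labels. The deletion is present in all cells of the animal, and the genotype and the source of the mice cannot be told apart in this design.

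MicroRNAs are short RNAs that pair through bases 2 to 8 of their 5′ end, the seed, with sites in messenger RNAs and lower the level or translation of those messengers. miR-155 is made from a non-coding host transcript and is best known in activated lymphocytes and macrophages, where its targets include inhibitors of cytokine signalling. Cisplatin is a platinum drug that crosslinks DNA and is taken up by the proximal tubule, where it activates p53 and causes acute tubular injury. In bulk tissue, fewer cells of a type and less RNA per cell cannot be told apart.

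The mature strands that the mutant lacks are shown with the seed in capitals, since targets are predicted from these letters. They are RefSeq entries on build GRCm38.p6, on the plus strand of chromosome 16, at chr16:84714143-84714165 for the 5p strand and chr16:84714182-84714202 for the 3p strand.
mmu-miR-155-5p: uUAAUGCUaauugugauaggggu
mmu-miR-155-3p: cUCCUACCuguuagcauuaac

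Neither miR-155 nor its host transcript Mir155hg had a named probe on the array, so the deletion could not be checked at the targeted gene. All 8 kidney markers examined were well above background on all 8 arrays, among them Umod of the thick ascending limb, Slc34a1 and Lrp2 of the proximal tubule, Aqp2 of the collecting duct and Nphs1 of podocytes. The 75th percentile of spot intensity lay between 1531 and 2647 on these arrays, and 69.6 to 79.7% of spots were well above background. Levels below are intensities scaled so that each array's 75th percentile is 1000.

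One miR-155-/- array stood apart before any gene was tested. Replicate 3 deviated from the mean of the other 3 arrays of its group by 0.89 (root mean square, log2), against 0.46 to 0.58 for the other miR-155-/- arrays and 0.36 to 0.40 for the wild type arrays. On the first principal component, which held 49.3% of the variance, it lay at -116 and the other 7 arrays between -20.0 and 33.9. Values without it are given where leaving it out moved a value by more than 1.5 times, turned its direction or ended a call.

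Few genes passed the test between the genotypes. Among 23743 genes and unnamed transcripts tested with limma on log2 levels, 19 passed a Benjamini-Hochberg adjusted p under 0.05 (0.0800%), of which 15 were higher in miR-155-/- kidneys (0.0632%) and 4 lower (0.0168%). At an unadjusted p under 0.05 there were 2210 (9.31%), and in 865 the groups of 4 did not overlap (3.64%). Of the 19, 16 had a gene name, 12 of them higher and 4 lower. The named rises were in a lipid kinase gene, a pair of Toll-like receptor genes, a secreted neuronal protein gene, a Golgi nucleotidase gene, several testis-type multicopy genes, and Plac9a, Tmem254a and Fam205a2. The named falls were in a pair of osteocalcin-type genes, a cysteine-rich secretory protein gene and a cilium gene. The other 3 calls, transcripts without a symbol here, were also higher. Those well above background in both groups differed by 1.81 and 1.47 on the log2 scale. The remaining transcript was well above background on 0 of 4 wild type arrays. Set against the lowest signal above background on those arrays, it was at least 12.2-fold higher. This bound was not tested, and the call compares with wild type values that were not well above background. The values of the groups did not overlap for any of the 19.

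**Figure D1:**
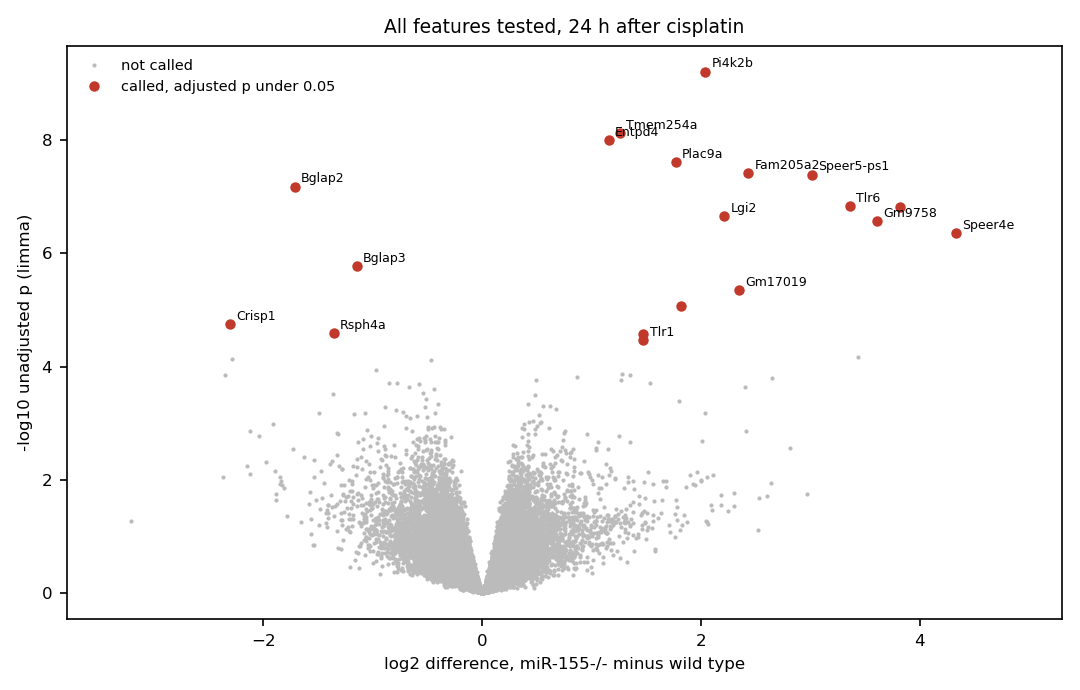
Each point is 1 of the 23743 features tested, with the log2 difference, miR-155-/- minus wild type, on the x axis and -log10 of the unadjusted limma p on the y axis. The 19 called features are in red, and the 16 with a gene name are labelled. Pi4k2b had the smallest p, and the called features lie above the mass of the others on both sides.

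Pi4k2b, a phosphatidylinositol 4-kinase that makes a phosphoinositide of endosomal and Golgi membranes, had the smallest p. Its level was 1005, 1159, 1450 and 1315 on the miR-155-/- arrays, against 293, 296, 274 and 326 on the wild type arrays. Every miR-155-/- kidney was far above the highest wild type kidney, and both groups were narrow. The difference was 2.04 ± 0.22 on the log2 scale (SE, limma, adjusted p = 1.45e-05), or 4.11-fold.

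Tlr6 and Tlr1 encode cell-surface receptors that pair with Tlr2 to detect bacterial lipopeptides, and both were higher in miR-155-/- kidneys. Tlr6 levels were 186, 41.4, 159 and 105 on miR-155-/- arrays, against 9.95, 10.703, 8.62 and 12.7 on wild type arrays. All 4 miR-155-/- kidneys lay well above the wild type range, with replicate 2 the lowest of them. The Tlr6 difference was 3.36 ± 0.48 (log2, SE, limma, adjusted p = 3.9e-04). Tlr1 levels were 108, 32.8, 105 and 81.5 on miR-155-/- arrays, against 25.2, 25.3, 24.5 and 32.7 on wild type arrays. Replicate 2 of miR-155-/- and replicate 4 of wild type were nearly level, so that the groups were separated by a narrow margin. The Tlr1 difference was 1.47 ± 0.30 (log2, SE, limma, adjusted p = 0.0426). It missed the threshold when any of miR-155-/- replicates 1, 3 and 4 or any single wild type array was left out, with an adjusted p of 0.240 without miR-155-/- replicate 3.

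Lgi2 encodes a secreted leucine-rich repeat protein known from the brain. Its levels were 147, 109, 128 and 394 on miR-155-/- arrays, against 38.7, 29.2, 43.0 and 35.7 on wild type arrays. The groups did not overlap, and replicate 4 of miR-155-/- was far above its group. The difference was 2.21 ± 0.33 (log2, SE, limma, adjusted p = 5.2e-04). Entpd4 encodes a nucleotide diphosphatase of the Golgi and lysosome. Its levels were 20234, 19482, 29267 and 23038 on miR-155-/- arrays, against 10184, 10356, 10575 and 9691 on wild type arrays. The wild type values were nearly equal and every miR-155-/- value was higher by a wide margin. The Entpd4 difference was 1.16 ± 0.14 (log2, SE, limma, adjusted p = 7.8e-05).

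Plac9a, first described in placenta, and Tmem254a, which encodes a membrane protein, were also higher. Plac9a levels were 1341, 837, 1609 and 1101 on miR-155-/- arrays, against 268, 373, 328 and 451 on wild type arrays. Tmem254a levels were 4342, 3924, 3341 and 3879 on miR-155-/- arrays, against 1473, 1529, 1897 and 1569 on wild type arrays. Neither gene's groups overlapped, and the differences were 1.77 ± 0.23 for Plac9a and 1.26 ± 0.15 for Tmem254a (log2, SE, limma). A second Tmem254a probe gave 1.24. Fam205a2 levels were 168, 127, 83.0 and 58.2 on miR-155-/- arrays, against 20.6, 13.9, 17.1 and 24.9 on wild type arrays. Its difference was 2.43 ± 0.32 (log2, SE, limma), but its 4 probes disagreed. The other 3 probes gave 2.32, 0.46 and -0.66, the last of them well above background on 1 of 4 miR-155-/- and 3 of 4 wild type arrays, and with the mean of the gene's probes the adjusted p was 0.135.

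Speer4e, Speer5-ps1, Gm9758 and Gm17019 were among the larger differences. Speer genes encode glutamate-rich proteins of the testis in a family of near-identical copies, so a probe cannot be tied to 1 copy with certainty. Speer4e levels were 15.9, 10.2, 20.8 and 20.1 on miR-155-/- arrays, against 0.784, 0.869, 0.824 and 0.741 on wild type arrays and below the background limit on all 4 of those. Set against the lowest signal above background on each wild type array, it was at least 3.99-fold higher in miR-155-/- kidneys (mean log2 levels over 4 arrays). This bound was not tested, and the call compares with wild type values below the background limit. It passed the filter on dim probes only through miR-155-/- groups, where it is high. It was called without that filter too, but on the same values, which adds no support. Gm9758 levels were 67.5, 107.1, 74.4 and 214 on miR-155-/- arrays, against 11.2, 10.02, 5.48 and 8.46 on wild type arrays. All miR-155-/- values were higher and replicate 4 was the highest. The Gm9758 difference was 3.61 ± 0.54 (log2, SE, limma, adjusted p = 5.8e-04). Speer5-ps1, a pseudogene of the family, was higher by 3.01 ± 0.40, with 3.04 and 2.54 at its 2 other probes (log2, SE, limma). Gm17019 was higher by 2.35 ± 0.41, with 2.71 to 2.77 at its 3 other probes. It missed the threshold without miR-155-/- replicate 4 (adjusted p = 0.0738) and without wild type replicate 2 (adjusted p = 0.0507). Of 14 Speer family members 11 were tested, all 11 were higher in miR-155-/- and 2 were called. Their median was 1.16 on the log2 scale, and 0.26 without miR-155-/- replicate 3. Of all 23743 features 10803 were higher and 0.0800% were called. Since the copies are near-identical, the 11 members cannot be counted as separate observations.

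The promoter windows of Speer4e, Gm9758 and Gm17019 show how alike these gene copies are where they start. Each runs from 250 bases before the start to 50 bases after it, from RefSeq on GRCm38.p6, minus strand. Capitals in Gm9758 and Gm17019 mark bases that an alignment set against a different base or an inner gap of Speer4e; ends that overhang the other window are neither marked nor counted. The windows lie at chr5:14938426-14938725, chr5:14914840-14915139 and chr5:15032958-15033257.
Speer4e: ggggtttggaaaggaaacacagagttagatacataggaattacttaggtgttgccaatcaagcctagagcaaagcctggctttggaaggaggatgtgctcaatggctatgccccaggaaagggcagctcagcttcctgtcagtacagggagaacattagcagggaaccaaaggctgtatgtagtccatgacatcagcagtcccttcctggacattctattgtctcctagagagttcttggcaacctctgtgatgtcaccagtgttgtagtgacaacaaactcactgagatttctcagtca
Gm9758: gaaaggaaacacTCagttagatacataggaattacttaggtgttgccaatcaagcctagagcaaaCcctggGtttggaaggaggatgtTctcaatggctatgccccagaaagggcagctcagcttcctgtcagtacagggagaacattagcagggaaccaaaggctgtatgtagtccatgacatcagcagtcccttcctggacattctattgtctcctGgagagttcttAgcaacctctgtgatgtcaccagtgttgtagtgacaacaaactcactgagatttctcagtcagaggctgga
Gm17019: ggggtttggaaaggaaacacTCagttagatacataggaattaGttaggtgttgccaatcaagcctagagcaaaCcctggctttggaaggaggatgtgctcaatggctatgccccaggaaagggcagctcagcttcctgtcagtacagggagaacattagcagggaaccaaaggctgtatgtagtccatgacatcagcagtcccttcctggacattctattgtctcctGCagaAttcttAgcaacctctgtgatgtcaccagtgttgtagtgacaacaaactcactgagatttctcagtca
Speer4e was identical to Gm9758 at 97.3% of 292 aligned positions and to Gm17019 at 97.3% of 300. The letters TATAAA, searched on both strands, were in none of the 3 windows and in 13.6% of 32851 RefSeq promoter windows of the same length.

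Bglap2 and Bglap3 encode osteocalcin, a calcium-binding protein of bone matrix, and an osteocalcin-related protein. They are near-identical copies, and both were lower in miR-155-/- kidneys. Bglap2 levels were 39.7, 52.99, 64.6 and 45.1 on miR-155-/- arrays, against 210, 169, 112 and 179 on wild type arrays. All 4 miR-155-/- kidneys were below the lowest wild type kidney, which was replicate 3. Bglap2 fell by 1.72 ± 0.24 on the log2 scale (SE, limma, adjusted p = 2.2e-04). Bglap3 levels were 144, 151 and 171 on miR-155-/- arrays 1, 2 and 4, against 426, 343, 288 and 331 on wild type arrays. The spot of replicate 3 was an outlier by the scanner software and was left out of the fit. Bglap3 fell by 1.15 ± 0.19 (log2, SE, limma, adjusted p = 0.0031), with -1.70 and -1.58 at its 2 other probes.

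Crisp1, a cysteine-rich secretory protein of the epididymis, and Rsph4a, a radial spoke protein of motile cilia, were lower as well. Crisp1 levels were 2.57, 5.31, 2.57 and 1.501 on miR-155-/- arrays, none of them well above background, against 19.5, 11.2, 12.2 and 11.7 on wild type arrays. Set against the lowest signal above background on each miR-155-/- array, Crisp1 was at least 2.23-fold lower in miR-155-/- kidneys (mean log2 levels over 4 arrays). That bound was not tested, and the call compares with miR-155-/- values that were not well above background. Crisp1 passed the filter on dim probes only through wild type groups, where it is high. It was called without that filter too, but on the same values, which adds no support. Rsph4a levels were 62.1, 82.4, 45.1 and 46.8 on miR-155-/- arrays, against 131, 160, 110 and 202 on wild type arrays. It fell by 1.36 ± 0.27 (log2, SE, limma, adjusted p = 0.0352), and a second probe gave -2.08. Both calls rested on nearly every array. Crisp1 missed the threshold when any array other than miR-155-/- replicate 2 was left out, and Rsph4a when any other than miR-155-/- replicate 2 and wild type replicate 3 was. Without miR-155-/- replicate 3 the adjusted p was 0.0794 for Crisp1 and 0.175 for Rsph4a.

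**Figure D2:**
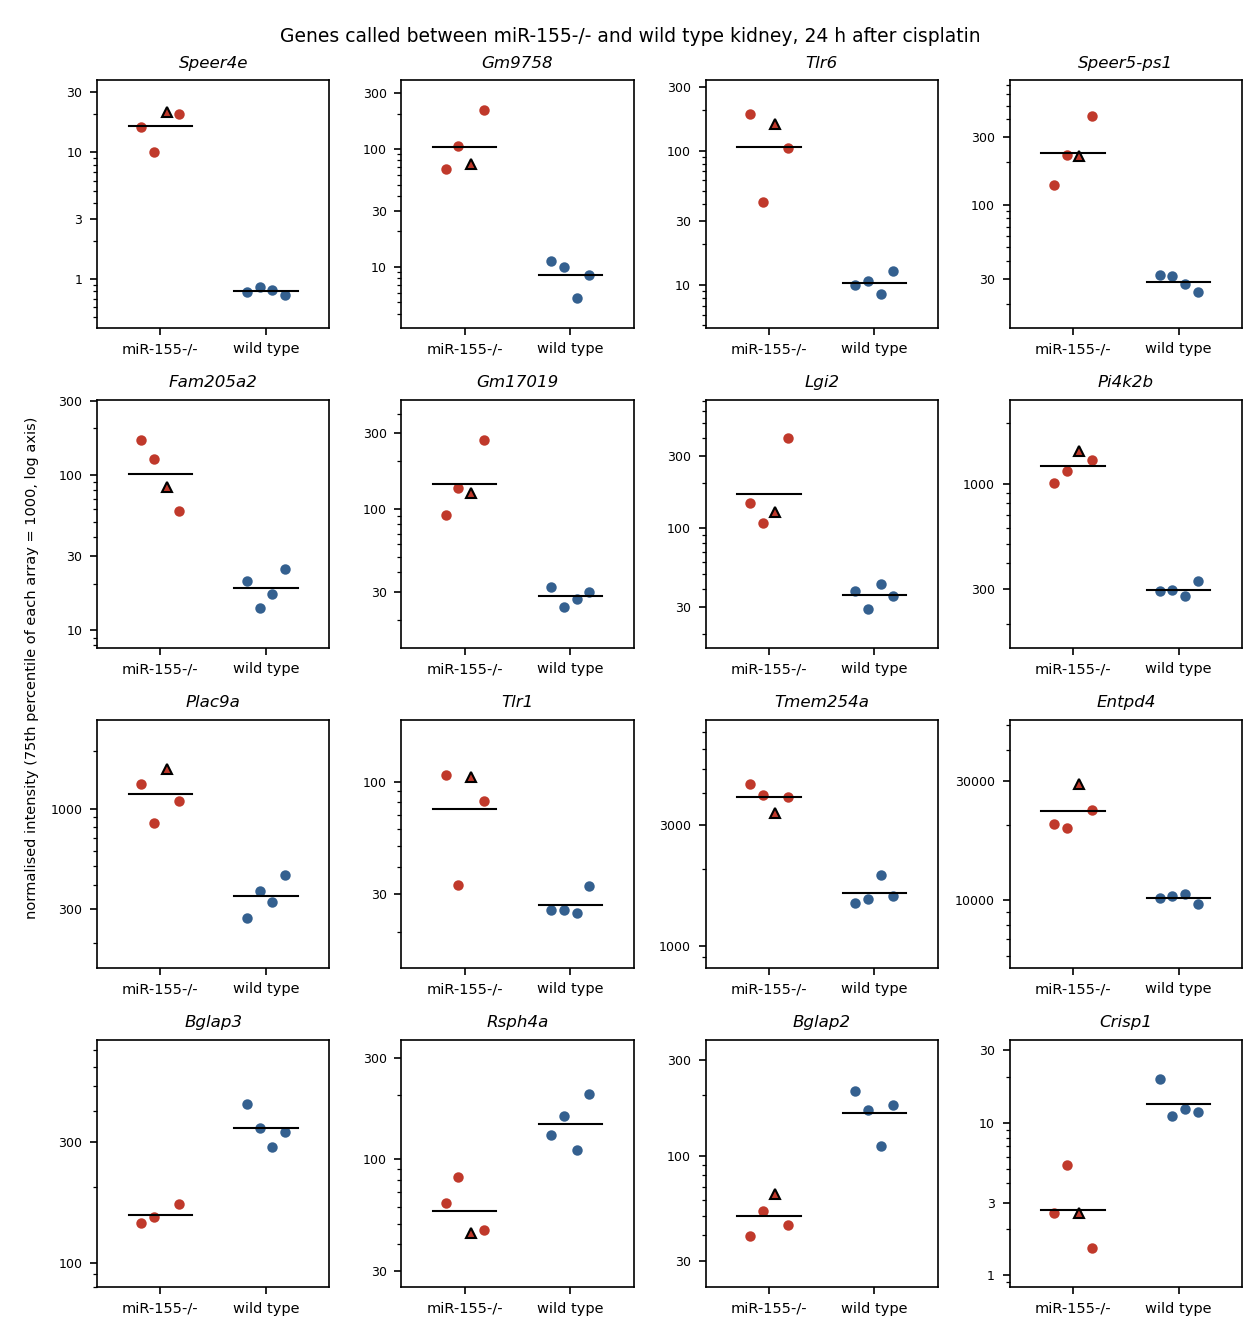
Normalised intensity (log axis, 75th percentile of each array set to 1000) of the 16 named called genes on the 4 miR-155-/- arrays (red, left; the triangle is replicate 3) and the 4 wild type arrays (blue, right), with black lines at the mean of log2 levels. The groups do not overlap for any of the 16 genes. Replicate 3 lies inside the range of the other miR-155-/- arrays for 8 of the 15 genes it has a value for.

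Without miR-155-/- replicate 3 there were 16 calls (0.0674%), 13 higher (0.0548%) and 3 lower (0.0126%), and 990 features at an unadjusted p under 0.05 (4.17%). Of the 19 calls 15 were kept. The 4 lost were Tlr1, Crisp1, Rsph4a and 1 unnamed transcript, and 1 other unnamed transcript was added. With normexp correction of the scanner's median spot signals and an offset of 50, in place of the deposited processed signals, 5 features were called and 4 of the 19 were kept, Pi4k2b, Plac9a, Tmem254a and Entpd4. This setting changes the signal, the correction and the offset together, and their parts were not tested. Among the rises Speer4e then differed by 0.067, Gm9758 by 1.14, Gm17019 by 1.14, Speer5-ps1 by 1.72, Fam205a2 by 0.93, Tlr6 by 1.25, Lgi2 by 1.25 and Tlr1 by 0.48 on the log2 scale, none of them called. Among the falls Crisp1 then differed by -0.85, Bglap2 by -1.31, Rsph4a by -1.18 and Bglap3 by -1.06, none of them called either. With slide as a block 15 features were called and 14 of the 19 were kept, with Gm17019, Tlr1, Crisp1 and Rsph4a among those lost. Within the 1 slide that held both 24 h groups, miR-155-/- replicate 4 against wild type replicate 2, Pi4k2b differed by 2.15, Tlr6 by 3.29 and Bglap2 by -1.90 on the log2 scale. With only the 8 arrays at 24 h in the fit, 12 features were called, of which 10 were among the 19, and Bglap2, Bglap3, Lgi2, Fam205a2, Tlr1, Crisp1 and Rsph4a were not. All 19 kept their direction under each alternative that tested them. With groups that do not overlap, leaving out an array or changing the filter could not turn it, so the kept direction adds no support.

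The 16 named called genes lay on 6 chromosomes. Of these genes 7 were on chromosome 5, all higher, which is 43.8% of them, against 6.10% of all named genes tested. The 7 cannot be counted as separate observations. Speer4e, Gm9758 and Gm17019 are alike in sequence, so a probe cannot be tied to 1 copy with certainty, and others of the 7 are neighbours. The share was not tested. A further 3 were on chromosome 14, Plac9a, Tmem254a and Entpd4, and 0 were on chromosome 16, which carries miR-155 and had 516 named genes tested. In the gene order of RefSeq, Gm9758 and Speer4e are next to each other, as are Tlr1 and Tlr6, and Plac9a and Tmem254a. Bglap3 and Bglap2 have 1 gene between them, and Lgi2 and Pi4k2b have 4. The other called genes on shared chromosomes are far apart, with 601 genes between Gm17019 and Lgi2, 93 between Pi4k2b and Tlr1, 1280 between Tmem254a and Entpd4 and 157 between Rsph4a and Speer5-ps1. Between Speer4e and Gm17019 there are 2. Of the genes around Mir155hg, 10 on either side, 5 had a probe and none was called. They were Mrpl39 of the mitochondrial ribosome at -0.20, the junction protein gene Jam2 at 0.34, the ATP synthase subunit gene Atp5j at 0.12, or 0.082 without replicate 3, the transcription factor gene Gabpa at 0.17, or 0.089 without replicate 3, and the amyloid precursor gene App at 0.25 (log2 differences, limma adjusted p between 0.533 and 0.643, with 0 at an unadjusted p under 0.05).

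The same genotypes at 0, 48 and 72 h came from other animals. All 19 differences had the same sign at each of these times. At 0 h, after saline, 13 of them were called in the same direction, against 27 calls in all (0.114%). At 48 h there were 12 of them, against 24 calls (0.101%), and at 72 h 16 of them, against 171 calls (0.720%). Pi4k2b was higher by 1.95, 2.04, 2.62 and 2.44 at 0, 24, 48 and 72 h, called at every time. At all 3 other times 11 of the 19 were called, and 2 of them, Crisp1 and Rsph4a, at none. Speer4e, among the 11, was well above background in wild type on 0 of 4 arrays at 0 h, 2 of 4 at 48 h and 1 of 4 at 72 h. Its calls at those times compare with wild type values near or below the background limit and add no support. Crisp1 differed by -0.08, -2.30, -1.52 and -0.63 at 0, 24, 48 and 72 h, and Rsph4a by -0.20, -1.36, -0.13 and -0.28. Crisp1 was well above background on 0 of 4 arrays of either genotype at 0 h. Its difference there cannot show whether the genotypes differed after saline. It was also well above background on none of the miR-155-/- arrays at 24 h, where only the bound given above holds.

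**Figure D3:**
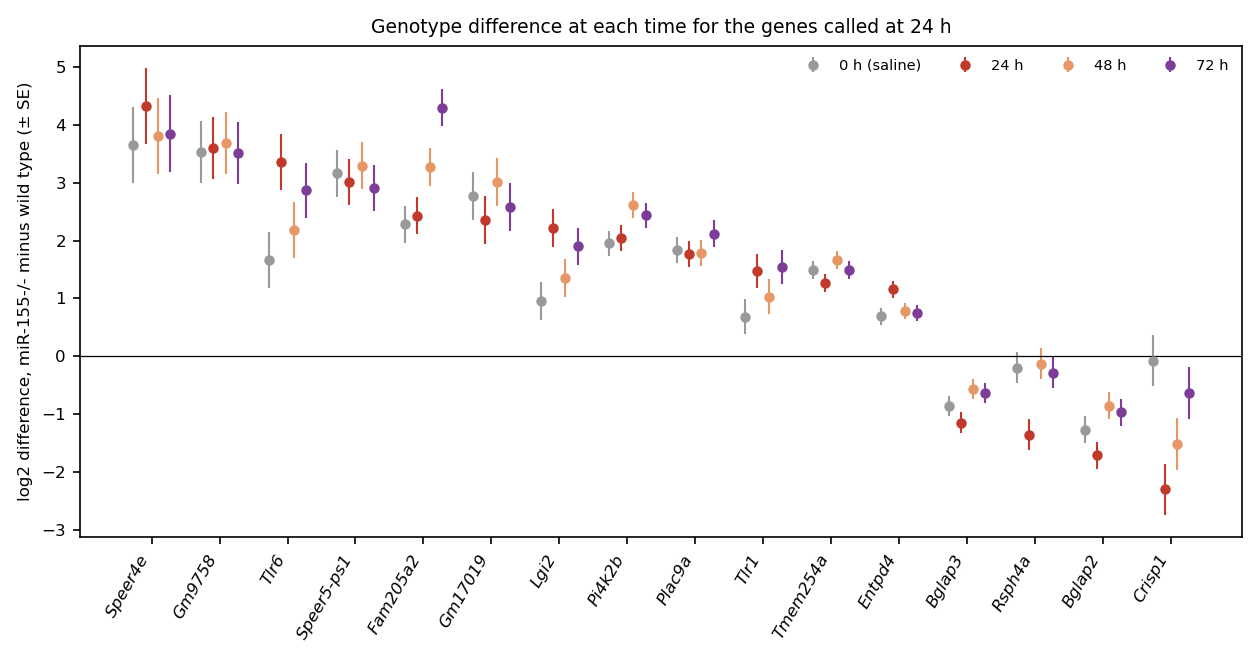
Log2 difference, miR-155-/- minus wild type, with its standard error, for the 16 named genes called at 24 h, at 0 h (grey, saline), 24 h (red), 48 h (orange) and 72 h (purple); each time has 4 and 4 animals. Every gene keeps its sign at each time, and Crisp1 and Rsph4a lie nearer to 0 at 0 h than at 24 h. Crisp1 was not well above background on any array at 0 h, so its point there cannot show whether the genotypes differed. Speer4e was not well above background on any wild type array at 0 h or 24 h.

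Whether the genotype difference at 24 h departed from that after saline was tested as an interaction, which shares the 24 h arrays with the comparison above. No feature passed (limma, 0 of 23743, 0.00%), with 785 at an unadjusted p under 0.05 (3.31%). Among the 19 called genes the smallest interaction p was that of Crisp1 (limma, adjusted p = 0.940). In the groups of this contrast Crisp1 was well above background only in wild type at 24 h, so the size of its interaction cannot be read. Tlr6 had an interaction of 1.70 ± 0.68 and Lgi2 of 1.26 ± 0.46 (SE, limma, adjusted p = 0.940 for either).

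Kidney injury genes were not called. Havcr1, which encodes the injury marker Kim-1 of the proximal tubule, had levels of 2759, 2129, 568 and 2650 on miR-155-/- arrays, against 3042, 3217, 1495 and 3273 on wild type arrays. Replicate 3 was the lowest of its group in both genotypes, and the groups overlapped. The difference was -0.61 ± 0.64 (log2, SE, limma, adjusted p = 0.731), and -0.08 without miR-155-/- replicate 3. Lcn2, the iron-carrier NGAL, had levels of 472, 854, 10257 and 5438 on miR-155-/- arrays, against 732, 749, 402 and 1075 on wild type arrays. Replicates 3 and 4 of miR-155-/- were high and the other 6 arrays were not. The difference was 1.64 ± 0.68 (log2, SE, limma, adjusted p = 0.518), and 0.90 without replicate 3.

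Clu, the secreted chaperone clusterin, had levels of 31644, 30772, 55583 and 55710 on miR-155-/- arrays, against 34434, 35119, 25707 and 30370 on wild type arrays. Replicates 3 and 4 of miR-155-/- again stood above the others, and the groups overlapped. Its difference was 0.42 ± 0.21, or 0.28 without replicate 3, and that of Spp1, the matrix protein osteopontin, 0.65 ± 0.23 (log2, SE, limma, adjusted p = 0.533 for Clu and 0.503 for Spp1). Of 20 injury markers tested 14 were higher and 6 lower, none called and 2 at an unadjusted p under 0.05, with a median of 0.22 and of 0.09 without replicate 3. The median of all features tested was -0.03, and -0.04 without that array. Of all features 9.31% had an unadjusted p under 0.05 (limma), and 4.17% without that array. The counts at this limit, here and in the lists below, are to be read beside those shares.

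The p53 target genes gave no call and went both ways. The 32 tested had a median difference of -0.03, both with and without replicate 3, with 13 higher, 19 lower, a range from -0.51 to 0.53 and 0 called (limma; 4 at an unadjusted p under 0.05). Cdkn1a, the p53-induced cell cycle inhibitor p21, had levels of 8069, 7033, 19699 and 15360 on miR-155-/- arrays, against 8708, 12288, 7688 and 10813 on wild type arrays. Mdm2, the ligase that degrades p53, had levels of 28895, 30280, 33800 and 38807 on miR-155-/- arrays, against 29114, 35135, 27533 and 29475 on wild type arrays. Both genes' groups overlapped. The differences were 0.24 ± 0.29 for Cdkn1a, or -0.024 without replicate 3, and 0.12 ± 0.14 for Mdm2 (log2, SE, limma, adjusted p = 0.770 for Cdkn1a and 0.769 for Mdm2). Gdf15, a stress cytokine induced by p53, differed by 0.15 ± 0.21 and Ccng1, another p53 target, by -0.35 ± 0.14.

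Stress genes that respond within hours were high on 1 array. Fos, a subunit of the transcription factor AP-1, had levels of 74.6, 136, 1077 and 236 on miR-155-/- arrays, against 154.7, 286, 93.5 and 187 on wild type arrays. Atf3, a stress-induced transcription factor, had levels of 759, 1222, 7995 and 2124 on miR-155-/- arrays, against 2019, 603 and 1467 on wild type arrays 2, 3 and 4, with the spot of wild type replicate 1 left out as an outlier. In both genes replicate 3 of miR-155-/- was the highest of the arrays and the remaining values overlapped. The Fos difference was 0.44 ± 0.50 with all arrays and -0.32 ± 0.39 without replicate 3, and that of Atf3 was 0.72 ± 0.51 and 0.05 ± 0.41 (log2, SE, limma). Of 18 immediate early and AP-1 genes 17 were higher and none was called (0 also at an unadjusted p under 0.05). Their median was 0.39, and 0.03 without replicate 3.

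**Figure D4:**
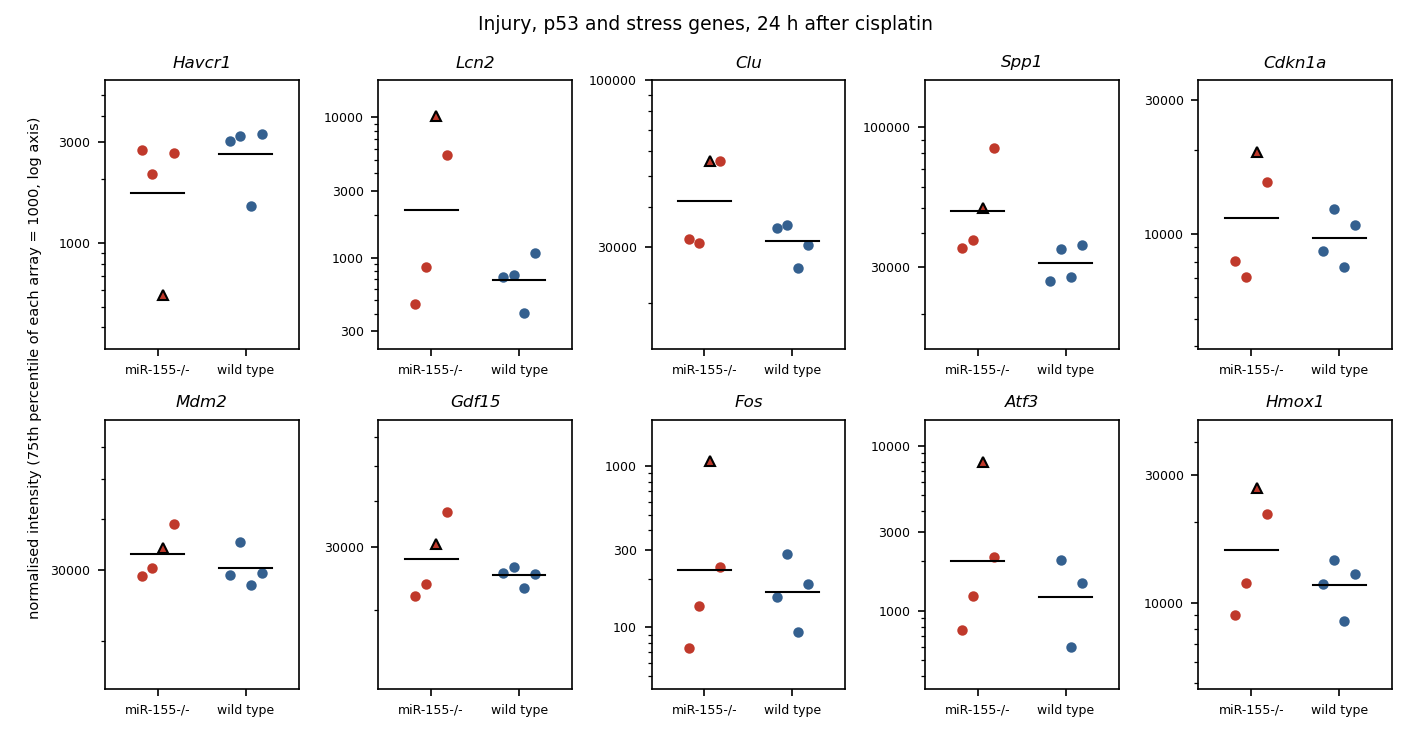
Normalised intensity (log axis, 75th percentile of each array set to 1000) of 10 injury, p53 and stress genes on the 4 miR-155-/- arrays (red, left; the triangle is replicate 3) and the 4 wild type arrays (blue, right), with black lines at the mean of log2 levels. The triangle is lowest for Havcr1 and highest for Lcn2, Fos, Atf3, Cdkn1a and Hmox1, and the groups overlap for every gene.

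The other stress pathways gave no call. Hmox1, a heme-degrading enzyme, differed by 0.43 ± 0.33, or 0.17 without replicate 3, and Gsta2, a glutathione transferase, by 0.53 ± 0.14 (log2, SE, limma, adjusted p = 0.635 for Hmox1 and 0.361 for Gsta2). Of 18 Nrf2 and glutathione genes 14 were higher, with a median of 0.18 and 3 at an unadjusted p under 0.05. Hspa5, the main chaperone of the endoplasmic reticulum, had a level of 56374 in miR-155-/- replicate 3, between 22809 and 30656 in the other miR-155-/- arrays and between 21451 and 25513 in wild type. The unfolded protein and integrated stress response list had a median of 0.15 over 16 genes, and -0.04 without replicate 3. Cell death genes (25 tested) had a median of 0.04, and their strongest member by p was the death receptor gene Fas at -0.51 ± 0.20, or -0.19 without replicate 3, which was the low array; the list's median without that array was 0.0072. The S phase and mitosis list (21 tested) had a median of -0.0095, and -0.033 without replicate 3.

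Inflammation and interferon genes, among which miR-155 is best known, went both ways and gave no call. Of 26 inflammatory genes tested 12 were higher and 14 lower, between -0.80 and 2.05, with 0 called (limma; 1 at an unadjusted p under 0.05). Their median was -0.014, and -0.12 without miR-155-/- replicate 3. Of 20 interferon-stimulated genes 10 were higher and 10 lower, between -0.46 and 0.42, with 0 called (limma; 0 at an unadjusted p under 0.05). Their median was 0.010, and 0.035 without replicate 3. Icam1, an adhesion molecule for leukocytes, had levels of 500, 614, 466 and 594 on miR-155-/- arrays, against 679, 907, 628 and 818 on wild type arrays. The groups did not overlap, but its difference was -0.47 ± 0.22 (log2, SE, limma, adjusted p = 0.532). Isg15, an interferon-induced ubiquitin-like protein, differed by 0.34 ± 0.22, or 0.23 without replicate 3.

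The published targets of miR-155 gave no call either. Of 44 targets 41 were tested, and 19 were higher and 22 lower in miR-155-/-. Of the 41, 5 had an unadjusted p under 0.05, 2 of them higher (limma), against 9.31% of all features. The median of the 41 was -0.0031, against -0.03 for all features, and 0.042 without replicate 3. Wee1, a kinase that holds cells before mitosis, had levels of 891, 943, 471 and 964 on miR-155-/- arrays, against 1133, 1353, 987 and 1122 on wild type arrays. Its groups did not overlap, replicate 3 of miR-155-/- was the lowest, and the difference was -0.54 ± 0.18 (log2, SE, limma, adjusted p = 0.503), or -0.29 without that array. Among the best-known targets, named here after their values were seen, the cytokine-signalling inhibitor gene Socs1 differed by 0.67, or 0.26 without replicate 3, the phosphatase gene Inpp5d by 4.2e-05, or -4.2e-04 without it, the chromatin factor gene Jarid2 by -0.19, or 0.0052 without that array, and the repressor gene Bach1 by 0.11, or 0.24 without it.

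Nephron and metabolism genes were likewise uncalled. The proximal tubule list had a median of 0.10 over 30 genes, or 0.058 without replicate 3, and its member with the smallest p was the organic anion transporter gene Slc22a8 at 0.93 ± 0.44 (limma). The distal nephron and collecting duct list had 19 of 25 genes lower and a median of -0.33, which became -0.01 without replicate 3. Its member with the smallest p, the water channel gene Aqp3, was on the other side at 0.54 ± 0.17, with levels of 7737, 6996, 8686 and 10345 on miR-155-/- arrays and 6451, 5052, 6625 and 4999 on wild type arrays. Of 19 oxidative phosphorylation genes 17 were higher by small amounts, with a median of 0.13, or 0.076 without replicate 3, and 0 were called (limma; 2 at an unadjusted p under 0.05). The 19 cholesterol synthesis genes had a median of 0.057, or 0.093 without replicate 3, with 0 called (limma). Of the 19, 5 had an unadjusted p under 0.05 (limma), 4 higher and 1 lower, against 9.31% of all features. Fatty acid oxidation genes had a median of -0.048 over 24 genes, which turned to 0.083 without replicate 3, and the 18 clock genes of -0.12, with the clock repressor gene Per2 at -0.59 ± 0.24, or -0.36 without that array.

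Markers of other cells gave no call. The summed level of 16 macrophage and monocyte markers lay between 52551 and 57765 on miR-155-/- arrays and between 47585 and 52755 on wild type arrays, with 13 of the 16 lower and a median of -0.28, or -0.050 without replicate 3. Ly6c1, one of the 3 higher members and also made by endothelium, held 22486 to 36977 of each sum. The medians of 2 lists turned without miR-155-/- replicate 3. The 9 neutrophil markers had a median of 0.10, and -0.13 without it, and the 3 adrenal cortex markers of 0.077, and -0.24 without it. The 11 lymphocyte markers had a median of -0.34 (-0.21 without it), the 12 endothelial markers of -0.23 (-0.14), the 9 podocyte markers of 0.095 (0.0072), the 8 adipocyte markers of 0.23 (0.24) and the 17 fibroblast and matrix markers of -0.11 (-0.26). Cd68 of macrophages, Ly6g of neutrophils, Cd79a of B cells and Cyp11a1 of the adrenal cortex did not pass the filter on dim probes. Red blood cell markers summed to 36828 on replicate 3 of miR-155-/- and to 6272 to 12776 on the other miR-155-/- arrays, against 5368 to 13664 on wild type arrays. Their median was 0.87, and 0.19 without replicate 3. The sum was carried by the globin genes, of which Hba-a2 was at 25432 on replicate 3, 2189 to 7277 on the other miR-155-/- arrays and 1368 to 7633 on wild type arrays. Of the 8 markers 2 were lower. One was Slc4a1, an anion exchanger of red cells and also of intercalated cells, at 70.2 on replicate 3, 224 to 607 on the other miR-155-/- arrays and 402 to 708 on wild type arrays. Globin and stress genes were thus high on the same array, and the part of the one in the other was not tested.

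**Figure D5:**
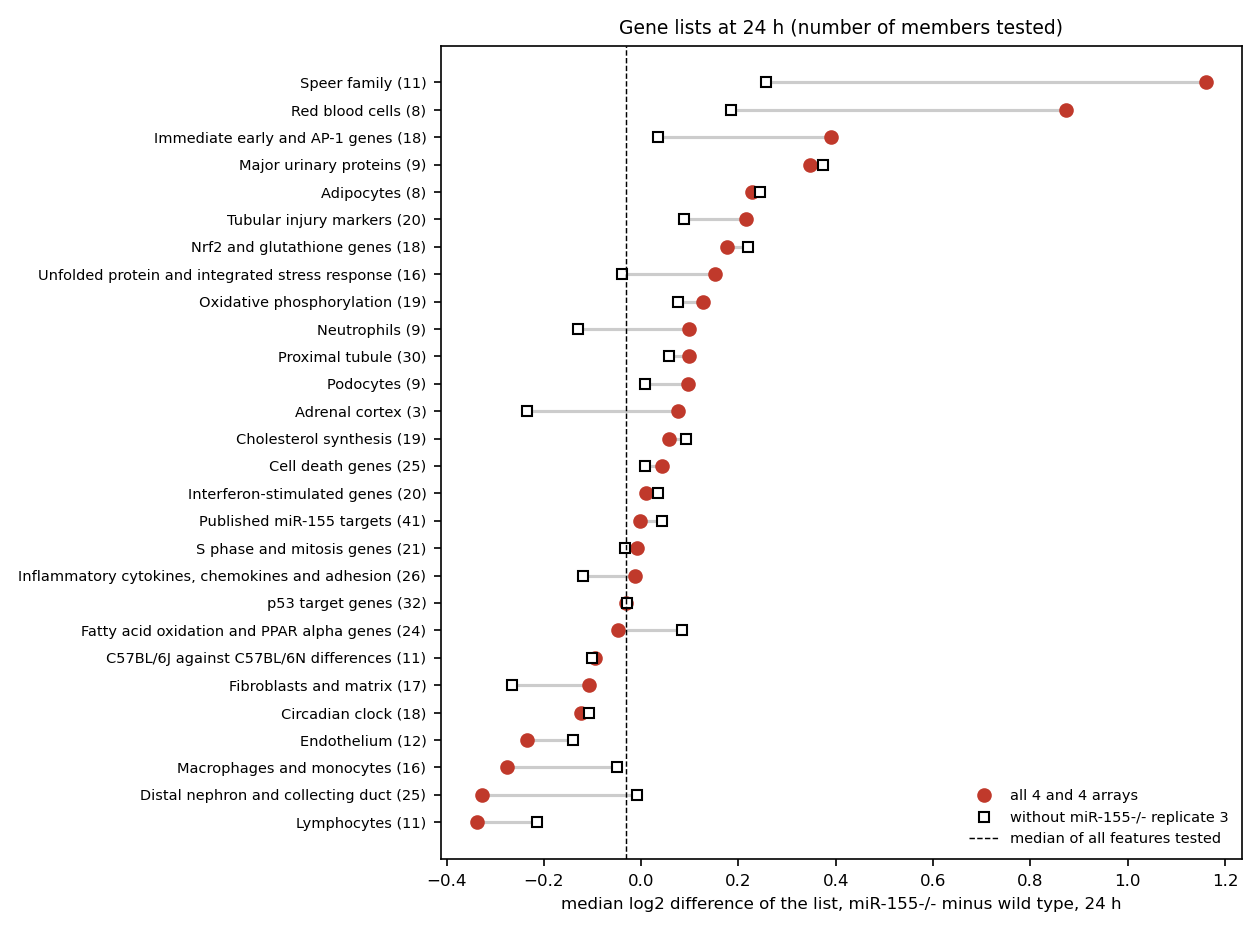
Median log2 difference, miR-155-/- minus wild type, of the tested members of each gene list, with all arrays (red circles) and without miR-155-/- replicate 3 (open squares); the dashed line is the median of all features, -0.03. The Speer family, red blood cell, immediate early and distal nephron lists move most between the settings.

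Genes known to differ between the substrains C57BL/6J and C57BL/6N were examined because the mice came from different suppliers. Of 13 such genes 11 were tested, 4 higher and 7 lower, with a median of -0.094 on the log2 scale. Of the 11, 1 was called, Entpd4, described above, against 0.0800% of all features. The list was written with earlier results of these data known, so this count adds no support. Wdfy1, an endosomal adaptor and named here after its value was seen, differed by -1.04 (log2, limma, adjusted p = 0.503). Nnt, the best-known of these genes, had no named probe.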

How the data were processed

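Kidney RNA was measured on 1-colour Agilent arrays. Per the file headers, Feature Extraction 10.7.3.1 (protocol GE1_107_Sep09) made the deposited processed signal, a background-subtracted linear intensity per spot. The authors' value table, also a deposited intensity, was that signal times 1 factor per array and served as an alternative. Of 39429 probes 27234 had a symbol, through transcript accessions, in a RefSeq table of GRCm38.p6, which supplied names and gene order only. No spot was saturated, and signal over background and the number of arrays limit the precision.

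The log2 signal minus each array's 75th percentile was used. Outlier spots were left out, replicate spots averaged, and the brightest probe stood for its gene, and it was kept if every array of some group of the 8 had it well above background and each group had at least 3 values. limma 3.58.1 in R 4.3.3 fitted 8 group means over all 32 arrays, with a 2-sided moderated test and Benjamini-Hochberg adjustment over 23743 features. It was tested on simulated data. Normexp (offset 50) used median spot signals because the files hold no mean signals. Named in the text are called genes with non-overlapping groups, the 10 fixed injury and stress genes, called members or the member with the smallest p of each list, and neighbours of Mir155hg. One item under this rule is not reported here. The members and lists were chosen with earlier results of these data known. Arrays with the same replicate number showed no strong shared shift, the correlations of their deviations being between -0.19 and 0.08. Such values cannot show whether animals were handled in pairs, and the main fit did not pair them. Slides, scan days, normalization, filters, array weights and single arrays were tried as alternatives.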

Additional observations from a re-analysis of the deposited data

Results flagged for a closer look

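In groups of 4 animals, the gap of an array to the nearest other array was taken on log2 levels, as a share of the group's range. An array was singled out when this share exceeded Dixon's 95% critical value. The levels printed below are linear. Over 112 groups of values, 8 were found, and chance alone gives about 1 in 20 groups. On miR-155-/- replicate 3, Havcr1 was at 568, against 2129 to 2759 on the other miR-155-/- arrays. On the same array Fas was at 1115, against 2543 to 2835, and Wee1 at 471, against 891 to 964. Atp5a1, an ATP synthase subunit gene, was at 55287 on miR-155-/- replicate 2, against 70350 to 72942. On wild type replicate 3, Havcr1 was at 1495, against 3042 to 3273, and Slc22a8 at 309, against 127 to 131. Crisp1 was at 19.5 on wild type replicate 1, against 11.2 to 12.2. Tlr1 was at 32.7 on wild type replicate 4, against 24.5 to 25.3.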

How the results depend on the processing

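At 24 h the 19 calls became 12 with only the 8 arrays of that time and 5 with normexp background correction, and 13 to 21 when single arrays were left out. The other 9 alternatives gave between 15 and 22 calls. With the replicate block, 19 features were called at 24 h and 17 of the original 19 were among them, the 2 lost being Tlr1 (limma adjusted p = 0.0573) and an unnamed transcript; the block changed no other count of calls by more than 1.5 times. The interaction, with 0 calls, had 2 with slide as a random block and 2 with quantile normalization, and 0 to 1 when single arrays were left out. At 0 h the calls were 51 with slide as a random block, 9 with normexp, 41 with quantile normalization and 143 with array weights. At 48 h they were 71 with slide as a block, 50 with slide as a random block and 199 with array weights. At 72 h they were 259 with slide as a block, 411 with slide as a random block, 63 with normexp and 3316 with array weights. The cause of these shifts was not tested. Some uncalled differences changed sign. Mdm2 was -0.016 with slide as a block and -0.034 with quantile normalization, which also gave Gdf15 -0.017 and Atp5j -0.0057. Array weights gave Cdkn1a -0.18, Fos -0.35 and Atf3 -0.041. When single arrays were left out, Cdkn1a ranged from -0.024 to 0.47 and Fos from -0.32 to 0.97, the lowest without miR-155-/- replicate 3. The 1 slide that held both 24 h groups carried miR-155-/- replicate 4 and wild type replicate 2, and all 19 called features had the same sign there. Since the groups did not overlap for any of the 19, that sign was fixed in advance and adds no support. The 4 animals per group, and signals near background for Speer4e, Crisp1 and an unnamed called transcript, limit the precision.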
